A study of Arabidopsis thaliana with 4 samples.

Results

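Expression of 4 transcription factor genes that promote greening in Arabidopsis thaliana was followed in red-light and dark-grown seedlings. They were GLK1 (AT2G20570), GLK2 (AT5G44190), GNC (AT5G56860) and CGA1 (AT4G26150), picked by their locus identifiers, and all 4 were found among the 27416 gene models of the deposited tables. The study sequenced poly(A) RNA of whole wild-type seedlings of the Col-0 ecotype, with 2 samples labelled red light (60 µmol per square metre per second) and 2 labelled darkness. Both groups had been sown on Murashige-Skoog medium with 1% sucrose, kept cold (4 °C) for 4 days and exposed to white light for 12 h before 4 days in red light or darkness, and were 4.5 days old. The dark seedlings were therefore not wholly unexposed to light. Each condition was deposited as a single column of reads and a single column of RPKM (reads scaled to gene length and to the total of the column), so no value below has a replicate error, no difference has a replicate check and no p-value is given.

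GLK1 and GLK2 (GOLDEN2-LIKE) belong to the GARP class of DNA-binding proteins. They act redundantly in switching on nuclear genes for chlorophyll synthesis and for the chlorophyll-binding antenna proteins, and plants that lack both are pale. GNC and CGA1 (also called GNL) are zinc finger proteins of the GATA family, class B, that promote chlorophyll formation and chloroplast growth and are known to respond to light, nitrate and cytokinin. PIF proteins, which accumulate in darkness, are known to repress greening, and HY5 is known to promote it.

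The red-light column summed to 33521717 reads and the dark column to 41106535, 1.23 times as many. The median log2 change over the 12625 genes that reached 10 RPKM under red light or darkness was -0.11, and the 6 reference genes had a median of -0.16, with ACT2 (actin) at 1587 RPKM in red light and 1696 RPKM in darkness. Brackets after a ratio or level hold exact 95% intervals, which cover the counting error of reads only. Without molecular identifiers several reads may stem from 1 molecule, so even the counting error may be larger than these intervals. A gene is called higher or lower where RPKM + 1 differed by a factor of 2 or more (log2 change 1 or beyond) and the larger of the 2 levels was no less than 10 RPKM. By that rule 8.69% of the 12625 genes came out higher in red light and 5.35% lower, which is the background for every count below.

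All 4 regulators had higher values in red light, but by very different factors. GLK2, GLK1 and CGA1 were called, and GNC was not. CGA1 changed most, with a ratio of 49.7, followed by GLK2 at 4.61, GLK1 at 3.44 and GNC at 1.57. The median log2 change of the 4 was 1.94, against -0.11 over all genes of at least 10 RPKM. Their summed level was 299 RPKM in red light and 79.4 RPKM in darkness, a ratio of 3.76. In RNA of whole seedlings, more cells that express a gene cannot be told apart from more RNA per cell.

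**Figure D1:**
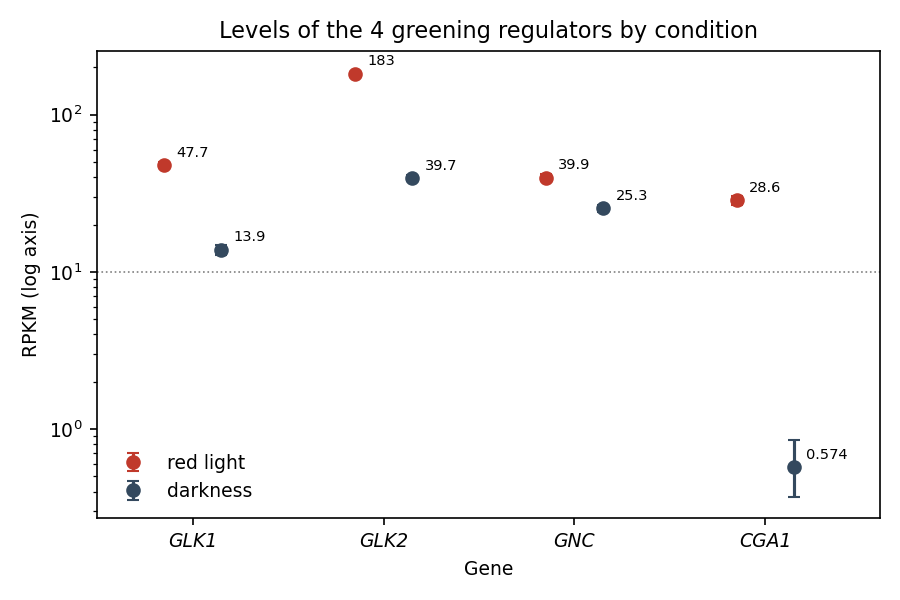
RPKM (log axis) of GLK1, GLK2, GNC and CGA1 in red light (red points) and darkness (dark points), 1 deposited column per condition; bars are exact 95% Poisson intervals of the reads and the dotted line marks 10 RPKM. CGA1 is the only one of the 4 below 10 RPKM in either condition, at 0.574 RPKM in darkness.

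GLK1 spans 8855302 to 8857758 of chromosome 2, plus strand, in the TAIR10.1 assembly. The authors counted it on transcript model AT2G20570.2, which has 7 exons and a coding length of 1311 bases. That model holds a coding exon of 48 bases, at chr2:8856018-8856065, inside what is an intron in model AT2G20570.1. It is shown because it enters the length behind the deposited RPKM of GLK1 in both conditions alike. That length bears on the level and cancels in the ratio. Whether the share of reads on this exon differed between conditions was not tested.
GLK1 exon: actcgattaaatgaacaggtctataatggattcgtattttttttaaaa
GLK1 had 47.7 RPKM in red light (2098 reads) and 13.9 RPKM in darkness (747 reads). The ratio was 3.44 (3.17 to 3.75) and the log2 change 1.71. Of the 12625 genes, 4.18% had a larger log2 change.

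GLK2 spans 17798262 to 17800926 of chromosome 5, plus strand, with 5 exons and a coding length of 1161 bases. It was the most abundant of the 4 in both conditions, at 183 RPKM in red light (7114 reads) and 39.7 RPKM in darkness (1893 reads). The ratio was 4.61 (4.38 to 4.85) and the log2 change 2.18, which 2.62% of the 12625 genes exceeded. In red light its level was above that of 96.5% of all gene models, and in darkness above 83.2%.

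GNC spans 22989216 to 22991530 of chromosome 5, minus strand, with 3 exons and a coding length of 1197 bases. It had 39.9 RPKM in red light (1599 reads) and 25.3 RPKM in darkness (1247 reads). The ratio of 1.57 (1.46 to 1.69) lay outside counting error but below the 2-fold rule, and 13.9% of the 12625 genes had a larger log2 change than its 0.63. It had the smallest ratio of the 4.

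CGA1 spans 13253084 to 13255106 of chromosome 4, plus strand, with 3 exons and a coding length of 1059 bases. It had 28.6 RPKM in red light (1014 reads) and 0.574 RPKM in darkness, where only 25 reads were counted (interval 0.372 to 0.848 RPKM). A count of 3 reads would correspond to 0.0689 RPKM in darkness, so the dark level was low but above that floor. The ratio was 49.7 with a wide interval, 33.5 to 77.2. Its log2 change of 4.23 held rank 31 among the 12625 genes, and was 5.41 with 0.1 RPKM added in place of 1.

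**Figure D2:**
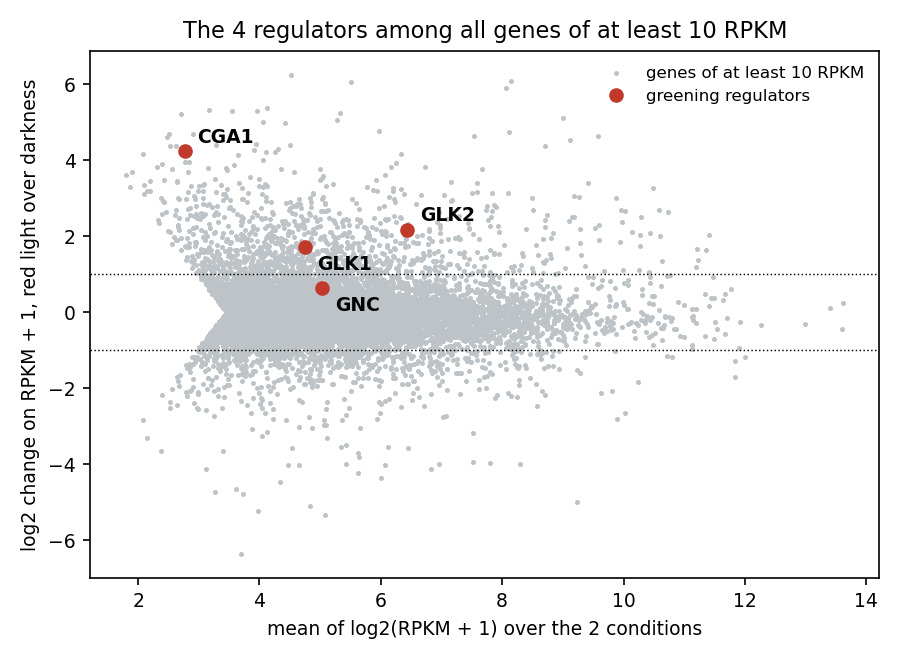
Log2 change on RPKM + 1, red light over darkness, against the mean of log2(RPKM + 1) over both conditions, for the 12625 genes of at least 10 RPKM (grey) and the 4 regulators (red). CGA1 stands at 4.23 and GNC at 0.63; dotted lines mark log2 changes of 1 and -1.

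The order of levels per length was not the same in the 2 conditions. In red light GLK2 stood first, 3.83 times above GLK1 (3.65 to 4.02). GLK1 was 1.2 times above GNC (1.12 to 1.28), and GNC 1.4 times above CGA1 (1.29 to 1.51). In darkness GLK2 was 1.57 times above GNC (1.46 to 1.68), GNC 1.83 times above GLK1 (1.67 to 2.00), and GLK1 24.1 times above CGA1 (16.2 to 37.5). Each of these neighbours differed by more than counting error, while variation between samples was not measured. GLK1 and GNC changed places between the conditions.

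The GLK pair kept nearly the same makeup, whereas the GATA pair did not. GLK2 made up 79.3% of the summed RPKM of GLK1 and GLK2 in red light and 74.1% in darkness, and the GLK2-to-GLK1 ratio differed 1.34-fold between conditions (1.21 to 1.48). The pair summed to 231 RPKM in red light and 53.5 RPKM in darkness, a ratio of 4.31. CGA1 made up 41.8% of the summed RPKM of GNC and CGA1 in red light and 2.22% in darkness. The CGA1-to-GNC ratio was 0.717 in red light and 0.0227 in darkness, a 31.6-fold difference (21.1 to 49.4). The GATA pair summed to 68.4 RPKM in red light and 25.9 RPKM in darkness, a ratio of 2.64, to which CGA1 contributed most of the added RPKM.

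**Figure D3:**
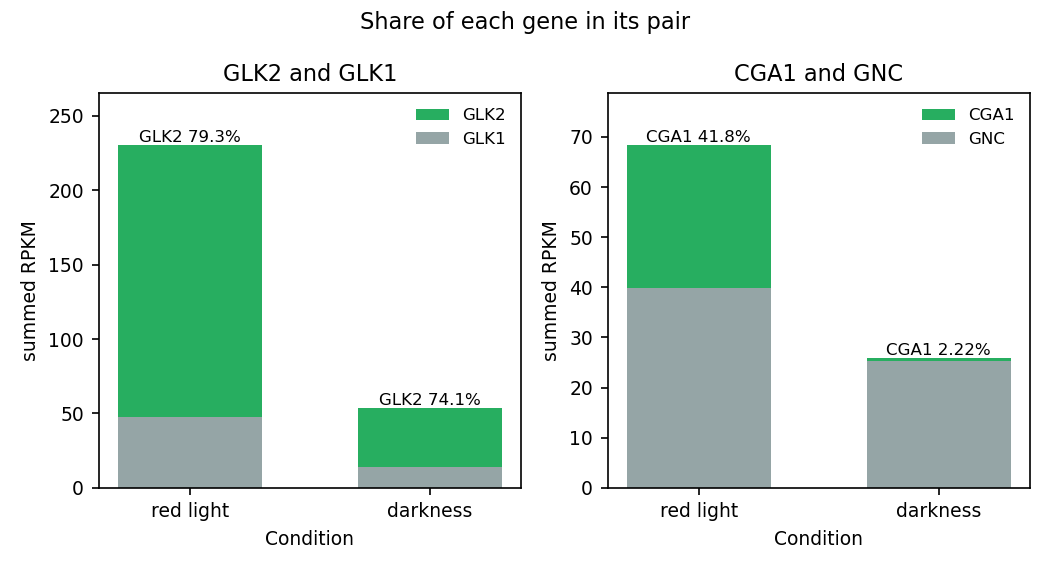
Summed RPKM of GLK2 and GLK1 (left) and of CGA1 and GNC (right) in red light and darkness, each bar split by gene and starting at 0. The label gives the share of GLK2 (79.3% in red light and 74.1% in darkness) or CGA1 (41.8% in red light and 2.22% in darkness).

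The proteins within each pair are alike, which raises the question whether reads could be split between copies. GLK2 and GLK1, translated from their RefSeq coding sequences, were identical at 61.1% of 350 aligned residues, and CGA1 and GNC at 65.5% of 336. At the DNA level the copies were distinct. None of the 31-base coding words of GLK1, GLK2 or CGA1 occurred in the coding sequence of another gene model, and 0.257% of those of GNC did. No annotated gene overlapped the span of any of the 4, and the closest neighbour, AT4G26160, lies 144 bases beyond the end of CGA1. The zinc fingers of GNC (residues 232 to 257) and CGA1 (residues 201 to 226) show the difference between protein and DNA. All 26 residues were identical, yet 8 of 78 coding bases differed. Both stretches are joined across an intron, and span chr5:22990056-22990381 on the minus strand for GNC and chr4:13253892-13254278 on the plus strand for CGA1. Capitals mark the bases that differ.
GNC zinc finger: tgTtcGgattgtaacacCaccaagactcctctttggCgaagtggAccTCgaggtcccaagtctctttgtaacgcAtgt
CGA1 zinc finger: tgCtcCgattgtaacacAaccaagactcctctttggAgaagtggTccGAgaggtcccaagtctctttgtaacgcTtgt

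Upstream sequence was searched for words that light-signalling factors are known to bind, since the 4 genes had the same direction of difference. The words were CACGTG (the G-box, bound by PIF proteins and HY5), CACATG (bound by PIF proteins), GATAAG (the I-box) and GATTCT (part of the site bound by GLK proteins), on either strand. In the 300 bases before the annotated start, the only match was a GATAAG of GLK1, 49 bases upstream, a word found in 14.5% of 26718 such windows. In 1000 bases, a window chosen after the shorter one had been searched, GLK1, GNC and CGA1 each held 1 CACGTG, 878, 479 and 781 bases upstream, and GLK2 held none. CACGTG occurred in 14.9% of all windows of that length. CACATG was found once each in GLK2, GNC and CGA1, against 37.8% of all windows. GATAAG was found in GLK1 and CGA1 (40.6% of all windows) and GATTCT in GLK2 and GNC (53.3%). A match describes letters and not a bound site, and no match says only that these letters were missing from the window.

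The G-box stretch of GLK1 lies at chr2:8854397-8854456 on the plus strand, and the CACATG stretch of GLK2, read as CATGTG, at chr5:17797636-17797695 on the plus strand. They are shown to set the upstream words of the GLK pair beside those of the GATA pair. Capitals mark the searched word.
GLK1 upstream: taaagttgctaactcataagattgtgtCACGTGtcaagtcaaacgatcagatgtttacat
GLK2 upstream: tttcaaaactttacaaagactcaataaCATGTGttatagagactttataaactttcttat

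GNC and CGA1 shared a longer upstream block that held both words in the same order. It lies at chr5:22991988-22992057 on the minus strand for GNC and at chr4:13252263-13252324 on the plus strand for CGA1. The blocks were identical at 55 of 62 aligned bases with 8 bases of gap, and 26 bases separate the words in GNC and 18 in CGA1. The blocks were cut around both words, so the bases of the words are among the 55 identical ones by construction. CACGTG and CACATG with at most 40 bases between them, in any order or strand, were found in 1.31% of the 26718 windows. The word pair and the limit of 40 bases were set after the block had been seen. The share is therefore a description and no test of how unusual the block is. The block is shown because the members of the pair that carry it differed 31.6-fold in how they changed. Whether the block bears on the level of either gene was not tested.
GNC upstream: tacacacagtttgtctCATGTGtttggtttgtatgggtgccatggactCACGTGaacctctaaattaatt
CGA1 upstream: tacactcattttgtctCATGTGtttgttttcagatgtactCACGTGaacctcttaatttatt

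Among their closest relatives by protein sequence, the GLK genes had one that was called higher too. APRR2, a GARP protein with a receiver-like domain and the highest blastp score to GLK1 and GLK2 after each other, had 33.4 RPKM in red light and 15.1 RPKM in darkness, a ratio of 2.2 (2.04 to 2.38). The next relatives were response regulators of cytokinin signalling. ARR1 was not called at 40.7 RPKM in red light and 76.7 RPKM in darkness. RR14 had 2.73 RPKM in red light and 0.55 RPKM in darkness, and RR18 had no read in red light and 1 read in darkness, all below the minimum of 10 RPKM.

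Within the GATA family, CGA1 was the only gene called higher, and 2 genes outside class B were called lower. Only 5 class B genes and 15 of classes A, C and D reached 10 RPKM. These are few genes to set against the 8.69% called higher and 5.35% called lower over all genes, so no difference between classes is drawn. Of 11 class B genes, 1 was called higher (CGA1), none lower and 10 were not called, 6 of them below 10 RPKM in both conditions (median log2 change 0.38). GATA17L and GATA17, small class B factors, had 29.5 and 12.2 RPKM in red light and 19.4 and 7.81 RPKM in darkness. Their ratios of 1.52 (1.35 to 1.72) and 1.56 (1.28 to 1.90) were close to that of GNC. GATA15 had 13.9 RPKM in red light and 13.2 RPKM in darkness, and GATA16 had 7.24 RPKM in red light and 7.76 RPKM in darkness.

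The HAN subgroup, known from meristem and flower development, stayed below 10 RPKM in both conditions. HAN had 1.28 RPKM in red light and 1.34 RPKM in darkness, HANL1 had 4.95 RPKM in red light and 4.46 RPKM in darkness, and HANL2 had 1.36 RPKM in red light and 0.727 RPKM in darkness. GATA23, known from lateral root founding, had 10 reads in red light and 6 in darkness, and GATA29 had none in either.

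Of the 19 GATA genes of classes A, C and D, none was called higher, 2 were called lower and 17 were not called (median log2 change 0.02). Of the 17, 4 stayed below 10 RPKM in both conditions and so could not be called. The 2 were GATA4 (AT3G60530) and GATA2 (AT2G45050), a related pair of which GATA2 is known to promote light-type seedling development. GATA4 fell to 24.5 RPKM in red light (593 reads), against 302 RPKM in darkness (8964 reads), with a ratio of 0.0811 (0.0745 to 0.0882). GATA2 fell to 11.5 RPKM in red light, against 88.6 RPKM in darkness, with a ratio of 0.130 (0.115 to 0.146). In darkness GATA4 alone exceeded the summed RPKM of GLK1, GLK2, GNC and CGA1, and in red light it stood below each of them. GATA11, the one class A gene among the nearest relatives of GNC by sequence, was not called at 19.5 RPKM in red light and 23.2 RPKM in darkness.

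**Figure D4:**
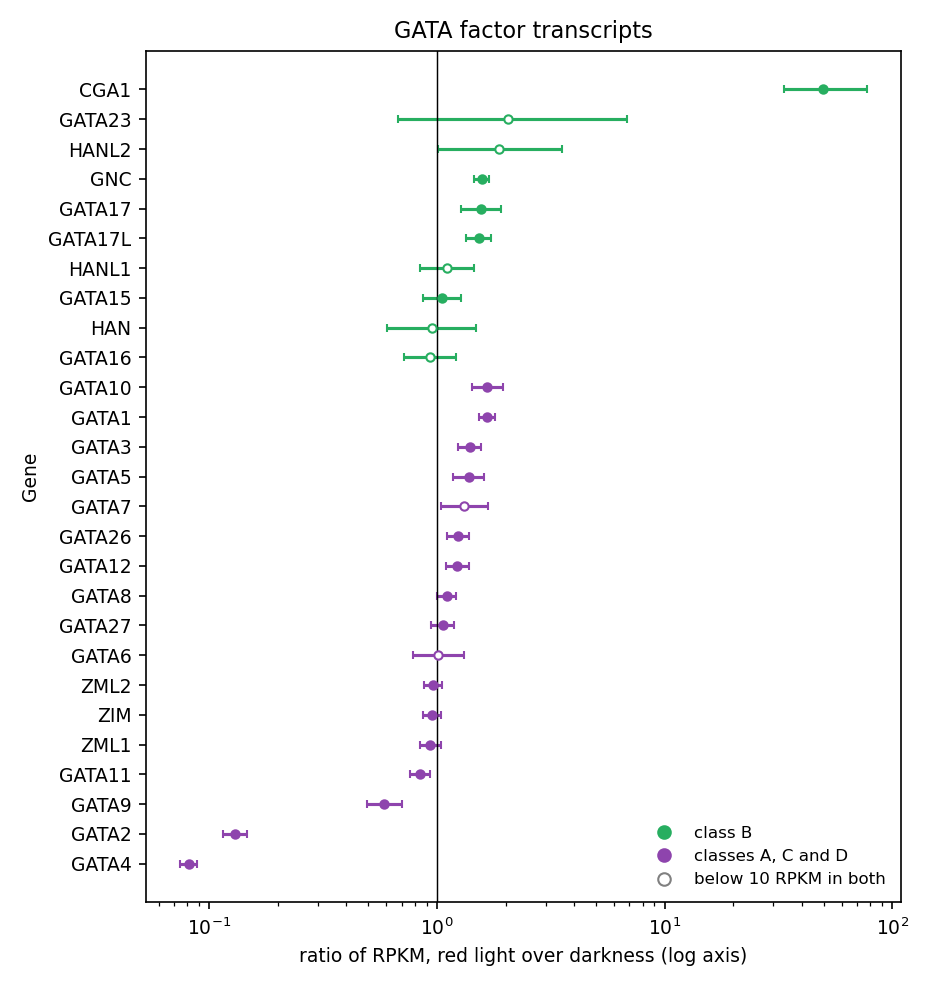
Ratio of RPKM, red light over darkness (log axis), of the GATA genes with at least 10 reads over both columns, with exact 95% counting intervals; green marks class B, purple classes A, C and D, and open circles genes below 10 RPKM in both conditions. CGA1 lies at 49.7, GNC at 1.57, GATA2 at 0.130 and GATA4 at 0.0811.

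Most genes of chlorophyll synthesis and the antenna, the processes that GLK proteins are known to activate, were called higher. Of 31 chlorophyll and antenna genes, 25 were called higher, 2 lower and 4 were not called. Over all genes of at least 10 RPKM, 8.69% were called higher and 5.35% lower. The median log2 change of the 31 was 1.92, against -0.11 over all genes of at least 10 RPKM. Whether the 31 genes followed the 4 regulators was not tested. LHCB2.2, LHCB2.3 and LHCA1, antenna proteins, had the largest log2 changes, 5.13, 4.74 and 4.65. LHCB2.2 shares 55.2% of its coding words with another gene, so its own part of the reads is uncertain. The same holds for LHCB2.1 (55.2%) and for the LHCB1 copies (37.7% to 50.6%). The coding sequences of GUN4 and LHCB1.5 lie wholly within the span of another annotated gene. PORA and PORB, which convert protochlorophyllide, were the 2 lower genes, with log2 changes of -3.96 and -2.07. The list took 5.69% of all reads in red light and 2.19% in darkness, whereas the 4 regulators took 0.0353% in red light and 0.00952% in darkness.

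Most regulators known to act upstream of or together with these factors were not called. Of 23, 3 were called higher, 3 lower and 17 were not called (median log2 change -0.15), few genes to set against the 8.69% called higher and 5.35% called lower over all genes. HYH, the partner of HY5, had 107 RPKM in red light and 9.89 RPKM in darkness. HY5 was not called, at 139 RPKM in red light and 79.6 RPKM in darkness. Of the PIF genes, PIF4 and PIF5 rose to 61.1 and 67.3 RPKM in red light, against 13.6 and 20.2 RPKM in darkness. PIF3 fell to 17.4 RPKM in red light, against 46.9 RPKM in darkness, with a ratio of 0.371 (0.344 to 0.399). ORE1, a senescence factor known to antagonise GLK proteins, fell to 5.95 RPKM in red light, against 23.6 RPKM in darkness, with a ratio of 0.252 (0.213 to 0.298). GAI, a DELLA repressor of gibberellin responses, fell to 14.8 RPKM in red light, against 41.5 RPKM in darkness, with a ratio of 0.357 (0.330 to 0.387).

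Among other nuclear regulators of greening, every call was in the direction of the 4, but 1 gene came close to a lower call. Of 13, 6 were called higher, none lower and 7 were not called (median log2 change 0.88), and APRR2 above is among the 6. Over all genes of at least 10 RPKM, 8.69% were called higher and 5.35% lower. SIG5 and SIG1, sigma factors that direct the plastid RNA polymerase, had 73.5 and 141 RPKM in red light and 3.02 and 31.7 RPKM in darkness. MYBS1, a MYB-related factor, had 35.0 RPKM in red light and 12.3 RPKM in darkness. MYBS2 was the only 1 of the 13 with a ratio below 1, at 41.5 RPKM in red light and 80.9 RPKM in darkness. Its ratio of 0.513 (0.480 to 0.548) and log2 change of -0.95 fell just short of a lower call. Of the MYBS2 coding sequence, 31.2% lies within the span of another annotated gene.

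**Figure D5:**
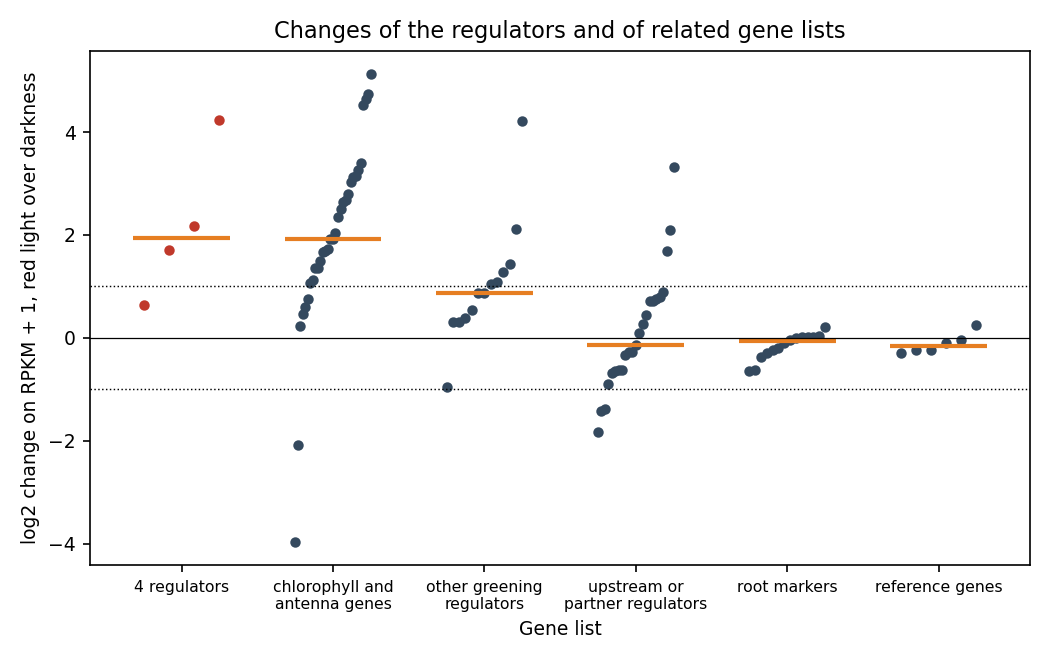
Log2 change on RPKM + 1, red light over darkness, of each gene (points, sorted within a list) with the list's median (orange line); dotted lines mark log2 changes of 1 and -1. Medians are 1.94 for the 4 regulators, 1.92 for chlorophyll and antenna genes, 0.88 for other greening regulators, -0.15 for upstream or partner regulators, -0.07 for root markers and -0.16 for reference genes.

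The labels give whole seedlings, and markers of other organs were checked because organ proportions can differ between light and dark growth. Of 14 root markers, of the endodermis, root hairs and nutrient uptake, none was called in either direction, but 7 stayed below 10 RPKM in both conditions and so could not be. Their summed level was 718 RPKM in red light and 749 RPKM in darkness, most of it from the 5 CASP genes of the endodermis (611 RPKM in red light and 619 RPKM in darkness). The 7 root-hair markers, 6 of them below 10 RPKM in both conditions, summed to 54.4 RPKM in red light and 76.2 RPKM in darkness. The ratio of the sums was 0.714. Of the 7, 4 were lower in red light by more than counting error, and the intervals of the rest held 1. LRX1 and PRP3, root-hair cell wall proteins, had the lowest ratios of the 7. LRX1 had 4.55 RPKM in red light and 7.63 RPKM in darkness, and PRP3 had 26.2 RPKM in red light and 40.7 RPKM in darkness. NRT2.1, a nitrate transporter, had no read in either. Of 3 shoot epidermis markers, PDF1 was called higher at 522 RPKM in red light against 251 RPKM in darkness, and ATML1 and PDF2 were not called (summed level of the 3, 596 RPKM in red light and 312 RPKM in darkness). The part of the root-hair and epidermis differences in the values of the 4 regulators was not tested.

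For each regulator, the 3 genes of at least 10 RPKM with the nearest pair of levels were taken by Euclidean distance of log2(RPKM + 1) over the 2 columns, which is a weak measure with 2 points. GNC was the least distinctive, with 18 other genes within 0.1, and the nearest were AGF2, GDU1 and AT5G06440. GLK2 had 3 within 0.1, which were CXIP1, EMB3119 (a ribose 5-phosphate isomerase) and CYP38 (a cyclophilin), at 182, 180 and 173 RPKM in red light and 40.1, 41.4 and 40.9 RPKM in darkness. GLK1 had none within 0.1, and the nearest were AT3G07700, AT2G44280 and AT3G04760. CGA1 had none either, and AT4G12830, AT1G48100 and AT3G52740 came nearest, at distances of 0.203 to 0.239.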

How the data were processed

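Poly(A) RNA of whole seedlings was sequenced, 2 samples each of red light and darkness, per the labels. The authors deposited, per the file headers, 1 column of reads and 1 of RPKM for each condition. The sources used here do not say which of the 2 samples entered a column, nor name the aligner, the counter, the use of strand or the treatment of multiply matching reads. TAIR10 is the build named by the submitters' processing notes. The deposited estimated counts were whole numbers, with 0.5 where no read was counted (4164 genes in red light and 4059 in darkness), and these were set to 0 and not otherwise rounded. The deposited RPKM values matched the reads divided by coding length (whole within 0.01 bases) and column total, so untranslated regions are not in the length.

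Ratios are of RPKM, with Clopper-Pearson intervals from the binomial share of reads, and ratios of ratios have exact conditional intervals of the odds ratio. Log2 changes add 1 RPKM and understate those of low genes. Relatives were found with blastp 2.17.0, sequences handled with Biopython 1.88, figures drawn with matplotlib 3.10.9 and values computed with scipy 1.17.1, pandas 2.3.3 and numpy 2.4.6 under Python 3.11.15. Scaling alternatives used edgeR 4.0.16 and DESeq2 1.42.0 in R 4.3.3.

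The 4 genes and all gene lists were chosen with earlier results of these data known. Named genes were the 4 regulators, all class B GATA genes, up to 3 called genes of each other list in each direction, 5 blastp relatives of each regulator, its 3 nearest genes, and GATA2, APRR2, HY5, PIF3, PIF4 and ACT2. LRX1, PRP3, NRT2.1, ATML1, PDF2, MYBS2, GUN4, LHCB2.1 and the LHCB1 copies were named outside this rule, after their values were seen. Sequences, gene spans and the names of relatives and nearest genes came from RefSeq TAIR10.1, to which 26691 of 27416 models matched by transcript. Names in the gene lists were looked up among RefSeq symbols and synonyms. Of those named above, MYBS1 and MYBS2 were not found there. The coding length of each of the 4 regulators equalled the deposited one.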

Additional observations from a re-analysis of the deposited data

How the results depend on the processing

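With 4-fold in place of 2-fold, GLK1 was no longer called, and over all genes 398 were higher and 124 lower in place of 1097 and 676. At 4-fold the higher genes numbered 15 of the chlorophyll and antenna list, 2 of the other greening regulators and 0 of the shoot epidermis markers, and the lower genes 0 of the upstream or partner regulators. Fewer genes follow from the stricter rule itself. Under TMM, DESeq2, upper-quartile and quantile scaling, and with organelle or chlorophyll and antenna genes left out of the totals, the ratio of GLK1 ranged from 3.43 to 3.61, of GLK2 from 4.60 to 4.84, of GNC from 1.57 to 1.65 and of CGA1 from 47.7 to 52.2. These lay within the counting intervals. The calls of the 4 genes held under the other 11 of 12 alternatives. Reads not divided by length gave GLK2-to-GLK1 ratios of 3.39 in red light and 2.53 in darkness and a CGA1-to-GNC ratio of 0.634 in red light, because the coding lengths differ. In 1000 upstream bases, a window added after seeing the data, CACGTG was found in 3 of the 4 genes, CACATG in 3, GATAAG in 2 and GATTCT in 2. No paired analysis was possible because each condition has 1 column, and for the same reason no replicate could be left out. The dark level of CGA1 rests on 25 reads, and its ratio has the widest counting interval of the 4 genes.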

Other observations

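A few further genes tied to these factors were examined after the values above were known. GLU1, the ferredoxin-dependent glutamate synthase whose expression CGA1 is known to modulate, was called higher, at 199.9 RPKM in red light and 67.6 RPKM in darkness, a ratio of 2.96 (2.90 to 3.02). Its relatives GLU2 and GLT1 were not called, with ratios of 0.834 (0.808 to 0.862) and 0.909 (0.895 to 0.923). Of the receptors that admit proteins to the plastid, TOC159 had 101 RPKM in red light and 198 RPKM in darkness. Its ratio of 0.508 (0.498 to 0.518) and log2 change of -0.97 fell just short of a lower call. TOC33 had 127 RPKM in red light and 183 RPKM in darkness, a ratio of 0.695 (0.668 to 0.724). Neither was called, but both were lower in red light by more than counting error. TOC75-III, the import channel, had 40.3 RPKM in red light and 30.0 RPKM in darkness, a ratio of 1.34 (1.28 to 1.41). TOC34 had 29.7 RPKM in red light and 33.7 RPKM in darkness, a ratio of 0.881 (0.810 to 0.959). Neither of these was called either.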
